A study of Mus musculus with 12 samples.

Results

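Gfap, Vim, Serpina3n, Aqp4, Kcnj10, Kcnj16, Slc1a2, Slc1a3, Glul and Gja1 are 10 genes by which the state of astrocytes is commonly read, and they were taken by symbol from the 24985 genes of the hippocampal count table. All 10 had a row and all 10 passed the filter on low counts, the smallest count of any of them in 1 mouse being 216 reads. The RNA came from the dissected dorsal hippocampus of wild-type C57Bl6/J mice. The study asked how raised acetate interacts with pathological tau. Each mouse received a unilateral injection at 6 months of age of PBS or of 1 ug of AD tau, the tau protein extracted from frontal cortex of people with Alzheimer's disease. From then on it ate either the control diet, a calorically equivalent standard chow, or chow with 5% sodium acetate by weight, and the right hippocampus was harvested 6 months later, the day after a remote memory test. The 4 groups had 3 mice each and are called PBS-control and Tau-control on the control diet, and PBS-acetate and Tau-acetate on the acetate diet. No mouse carried a tau transgene, so what the tau groups model is the response of otherwise normal tissue to 1 injected dose of human tau.

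Astrocytes take up the glutamate and potassium that active neurons release, and they move water through their endfeet on blood vessels. After injury, infection or protein deposition many astrocytes become reactive, a state classically recognised by more intermediate filament protein. The members fall by role into reactive markers (Gfap, Vim, Serpina3n), water handling (Aqp4), potassium handling (Kcnj10, Kcnj16), glutamate handling (Slc1a2, Slc1a3, Glul) and gap junction coupling (Gja1). In bulk RNA, fewer astrocytes and less RNA of a gene per astrocyte cannot be told apart.

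Levels below are CPM, the read counts scaled to a common library size with TMM factors. Differences are log2 fold changes with standard errors (SE). A gene was called when the quasi-likelihood test of edgeR gave a Benjamini-Hochberg adjusted p below 0.1 over the 14742 genes tested. The libraries held 12983233 to 20218340 counted reads. All 12 mice were labelled male, but Xist was read at 920 to 1340 CPM in every mouse and the 4 Y-linked genes looked up had a total count of 0, so the libraries went against the labelled sex in all 4 groups alike. The 27 astrocyte identity markers, such as Aldoc and Slc7a10, summed to 8017 to 9129 CPM per mouse. One library, Tau-acetate mouse 3, stood apart in its 12 ependymal and choroid plexus markers, which summed to 518 CPM against 82.2 to 219 CPM in the other mice. Some results for the members are given with and without it, and most results for other genes only with it.

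Divided by the length of each gene's exons, Glul, which makes glutamine from glutamate, was the most abundant member at 462 CPM per kilobase averaged over groups, followed by the glutamate transporter Slc1a2 at 221 and the filament gene Gfap at 132. Slc1a3 (63.0), Kcnj10 (35.9), Serpina3n (33.3), Aqp4 (24.3), Gja1 (19.3), Vim (9.40) and Kcnj16 (4.06) came next on the same scale. Over single mice, the CPM per kilobase of Serpina3n (25.4 to 40.2) overlapped that of Kcnj10 above it (30.8 to 41.7) and that of Aqp4 below it (21.3 to 27.9). The other neighbours in this order did not overlap over the 12 mice. Exon lengths merge all annotated transcripts, so a member whose long forms are unused has a level that is too low here. By GENCODE on GRCm38 the members lie on 7 chromosomes, with Gfap at chr11:102887336-102900912 on the minus strand, Vim at chr2:13573927-13582826 on the plus strand, Aqp4 at chr18:15389496-15410982 on the minus strand and Slc1a2 at chr2:102658659-102790784 on the plus strand. Serpina3n, at chr12:104406729-104414329 on the plus strand, belongs to a cluster of close paralogs among which reads can be divided, so its values are uncertain. Of Glul's exon bases, 2.8% are shared with the microRNA gene Mir8114 on the same strand.

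Among the reactive markers, Vim moved most. Vim encodes vimentin, an intermediate filament that astrocytes share with endothelial, ependymal and other cells. Its level was 50.9, 47.7 and 45.7 CPM in the PBS-control mice, 39.5, 33.9 and 33.7 in PBS-acetate, 41.9, 35.7 and 40.4 in Tau-control, and 66.1, 47.1 and 52.4 in Tau-acetate. The 3 PBS-acetate mice all lay below the 3 PBS-control mice, and the 3 Tau-acetate mice all lay above those of both PBS-acetate and Tau-control. In PBS-injected mice the acetate diet lowered Vim to 0.741 of the control-diet level (log2 -0.43, SE 0.11, edgeR adjusted p = 0.0445). Among acetate-fed mice, AD tau raised Vim 1.55-fold (log2 0.63, SE 0.11, edgeR adjusted p = 0.0593), which ranked 7th by p of all genes tested. On the control diet the AD tau-injected mice instead lay below the PBS-injected mice, at log2 -0.29 (SE 0.11, edgeR adjusted p = 0.409), not called. The diet difference within AD tau-injected mice was log2 0.49 (SE 0.11) and missed the threshold in edgeR (adjusted p = 0.168), while the DESeq2 Wald test called it (adjusted p = 0.0130).

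The call on Vim between Tau-acetate and PBS-acetate was lost when any 1 of the PBS-acetate mice or Tau-control mouse 3 was left out. Over all 12 fits that left out 1 mouse, the log2 difference ranged from 0.48 to 0.73 and the edgeR adjusted p from 0.00491 to 0.442. The diet call in PBS-injected mice was lost without PBS-control mouse 1, PBS-control mouse 3 or PBS-acetate mouse 2, with log2 differences of -0.50 to -0.38. Leaving out Tau-acetate mouse 3 left both calls in place.

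Gfap, which encodes the glial fibrillary acidic protein and is the most used marker of astrocyte reactivity, had the same order of group means without a call in edgeR. It was read at 592, 588 and 522 CPM in PBS-control, 537, 497 and 477 in PBS-acetate, 556, 548 and 488 in Tau-control, and 724, 613 and 556 in Tau-acetate. The Tau-acetate mice lay above all PBS-acetate mice and above all Tau-control mice, the lowest of them only just, and their spread was the widest (631 ± 85.3 CPM, SD, n = 3). The difference between Tau-acetate and PBS-acetate was log2 0.33 (SE 0.09), with an edgeR adjusted p = 0.209 and a DESeq2 adjusted p = 0.0355. It passed the edgeR threshold without Tau-acetate mouse 3, at log2 0.41 (adjusted p = 0.0777), and in no other fit that left out 1 mouse. Without Tau-acetate mouse 1, the mouse with 724 CPM, it shrank to log2 0.22 (adjusted p = 0.378), and over all 12 such fits the adjusted p reached 0.527. Between Tau-control and PBS-control Gfap differed by log2 -0.10 (SE 0.09, edgeR adjusted p = 0.794), and the groups overlapped.

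Serpina3n, a secreted protease inhibitor induced in reactive astrocytes, was called in none of the 5 comparisons over all 12 mice. Its values were 83.0, 65.6 and 78.1 CPM in PBS-control, 52.4, 63.5 and 68.9 in PBS-acetate, 67.9, 63.7 and 69.0 in Tau-control, and 78.6, 70.1 and 63.8 in Tau-acetate. Groups overlapped in every pairing. The lowest group mean was again that of PBS-acetate, with a diet difference in PBS-injected mice of log2 -0.30 (SE 0.11) and an adjusted p of 0.127 in edgeR and 0.0640 in DESeq2. It ranged from log2 -0.39 to -0.19 with each mouse left out, the smallest without PBS-acetate mouse 1. In 3 of these 12 fits, without PBS-control mouse 2, PBS-acetate mouse 3 or Tau-acetate mouse 1, edgeR called it.

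**Figure D1:**
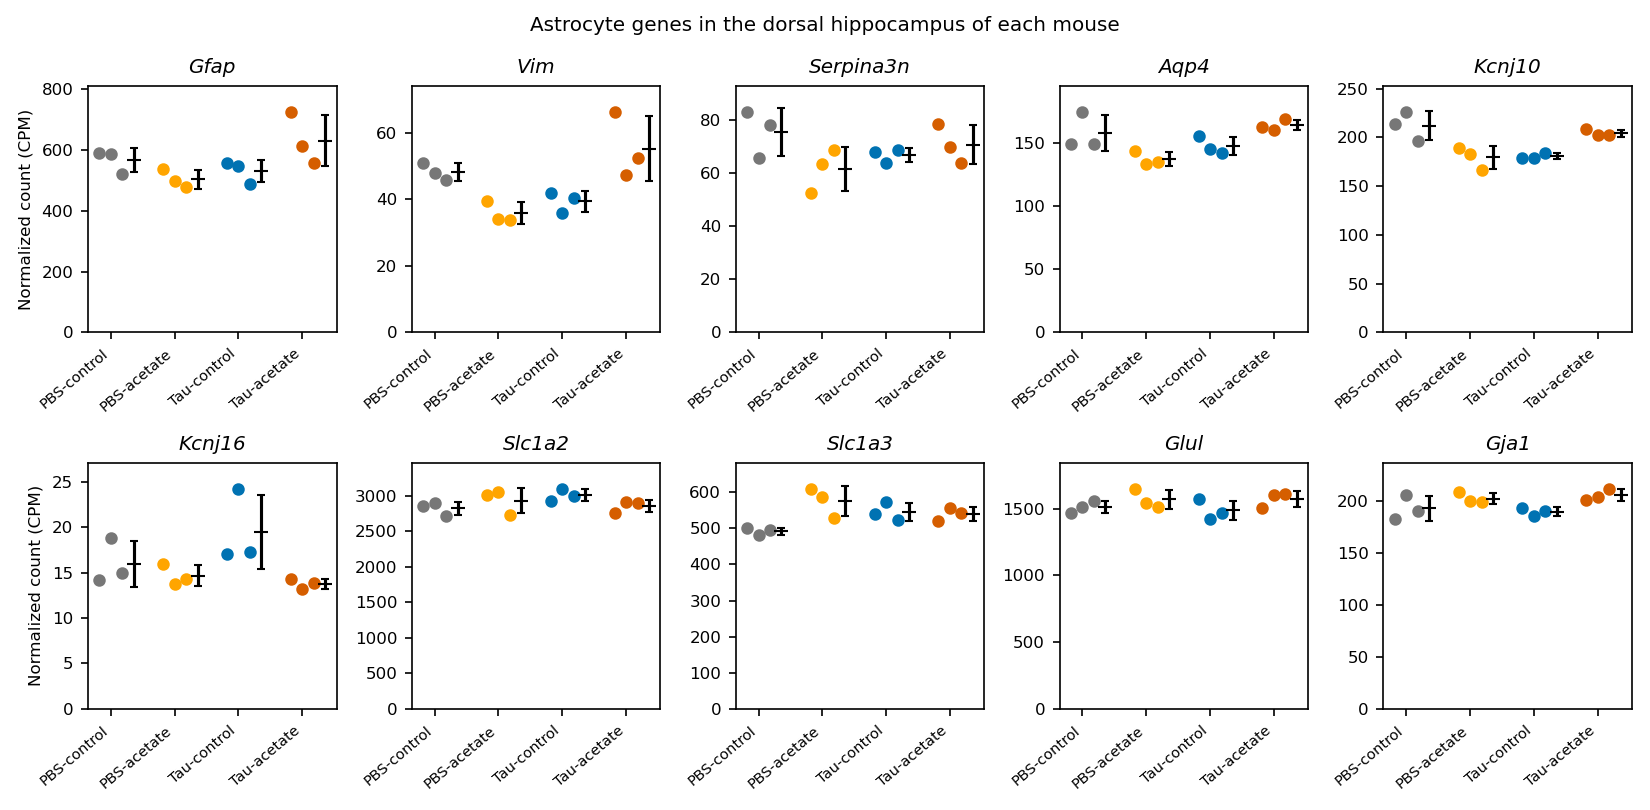
Level in CPM (vertical axis, linear, from 0) of each of the 10 members in each mouse, by group (horizontal axis), with points for mice and bars for the group mean and SD (n = 3). Vim, Kcnj10 and Aqp4 have their lowest means in PBS-acetate mice, Slc1a3 has its lowest in PBS-control mice, and Kcnj16 has its highest in Tau-control mice.

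The channel genes of the endfoot, Aqp4 and Kcnj10, differed in the same direction as Vim with smaller sizes. Kcnj10 encodes the inward rectifier potassium channel Kir4.1 that clears potassium from the space around neurons. It was read at 214, 226 and 196 CPM in PBS-control, 189, 183 and 166 in PBS-acetate, 179, 178 and 184 in Tau-control, and 208, 202 and 202 in Tau-acetate. All PBS-control mice and all Tau-acetate mice lay above all mice of the other groups. The acetate diet lowered Kcnj10 in PBS-injected mice to 0.847 of the control-diet level (log2 -0.24, SE 0.06, edgeR adjusted p = 0.0330), a call lost only without PBS-acetate mouse 2 among the 12 mice left out in turn. On the control diet the AD tau-injected mice lay below the PBS-injected mice at log2 -0.23 (SE 0.06). That difference was not called by edgeR (adjusted p = 0.276, rank 38 by p) and was called by DESeq2 (adjusted p = 0.0657). On acetate the AD tau difference was log2 0.19 (SE 0.06, edgeR adjusted p = 0.260), with no overlap between groups.

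Aqp4 encodes aquaporin-4, the main water channel of astrocyte endfeet. Its level was 149, 174 and 149 CPM in PBS-control, 143, 133 and 135 in PBS-acetate, 156, 145 and 142 in Tau-control, and 163, 160 and 169 in Tau-acetate. PBS-acetate mice lay below all PBS-control mice, and Tau-acetate mice lay above all PBS-acetate and Tau-control mice. The diet difference in PBS-injected mice was log2 -0.20 (SE 0.06, edgeR adjusted p = 0.0726). This call was lost when PBS-control mouse 2 or 3 or any PBS-acetate mouse was left out, and without PBS-control mouse 2, the mouse with 174 CPM, the difference was log2 -0.12. Between Tau-acetate and PBS-acetate Aqp4 differed by log2 0.26 (SE 0.06), with an adjusted p of 0.165 in edgeR and 0.0363 in DESeq2.

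Kcnj16 encodes Kir5.1, a subunit that joins Kir4.1 in mixed channels, and its group means followed another order than those of Kcnj10. It was read at 14.1, 18.8 and 14.9 CPM in PBS-control, 16.0, 13.8 and 14.2 in PBS-acetate, 17.0, 24.2 and 17.2 in Tau-control, and 14.3, 13.2 and 13.9 in Tau-acetate. Tau-control held the highest mouse, at 24.2 CPM, and lay wholly above Tau-acetate. The diet difference in AD tau-injected mice was log2 -0.50 (SE 0.13), with an adjusted p of 0.208 in edgeR and 0.0735 in DESeq2. Without Tau-control mouse 2, the mouse with 24.2 CPM, it shrank to log2 -0.31 (edgeR adjusted p = 0.491).

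The glutamate genes did not share the pattern of Vim, Kcnj10 and Aqp4. Slc1a3 encodes GLAST, one of the transporters that take glutamate into astrocytes. Its level was 500, 480 and 495 CPM in PBS-control, 609, 586 and 529 in PBS-acetate, 541, 572 and 523 in Tau-control, and 519, 557 and 541 in Tau-acetate. The 3 PBS-control mice lay below all the other 9 mice. Acetate raised Slc1a3 1.17-fold in PBS-injected mice (log2 0.23, SE 0.06, edgeR adjusted p = 0.0355), a call lost without PBS-control mouse 3, PBS-acetate mouse 1 or PBS-acetate mouse 2. Tau-control lay above PBS-control by log2 0.15 (SE 0.06, edgeR adjusted p = 0.394), and Tau-acetate differed from Tau-control by log2 -0.02 (SE 0.06, edgeR adjusted p = 0.948).

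Slc1a2 encodes GLT-1, the transporter that carries most glutamate uptake in the forebrain. It was read at 2853, 2904 and 2722 CPM in PBS-control, 3011, 3056 and 2729 in PBS-acetate, 2929, 3099 and 2997 in Tau-control, and 2759, 2917 and 2899 in Tau-acetate. Its 4 pairwise differences ran from log2 -0.07 to 0.09 (SE 0.05), none called. Glul encodes glutamine synthetase, and its group means were 1512 ± 46.9 CPM in PBS-control, 1569 ± 69.8 in PBS-acetate, 1486 ± 74.4 in Tau-control and 1572 ± 60.7 in Tau-acetate (SD, n = 3). Gja1 encodes connexin 43, which couples astrocytes to each other, and its group means were 193 ± 11.8, 202 ± 5.34, 190 ± 4.07 and 206 ± 5.51 CPM in the same order. No difference of Glul or Gja1 was called, and the widest was log2 0.12 (SE 0.05) for Gja1 between Tau-acetate and Tau-control, whose mice did not overlap.

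The windows before the start sites of Kcnj10 and Slc1a3, which acetate moved in opposite directions in PBS-injected mice, are shown with that of Gfap, the classical marker that was not called. Windows were taken before RefSeq start sites on GRCm38.p6 for 9 of the 10 members, Aqp4 being left out. Each window holds the 250 bases before its start site. Kcnj10 lies at chr1:172341210-172374085 and its window at chr1:172340960-172341209, both on the plus strand. Slc1a3 lies at chr15:8634124-8710764 and its window at chr15:8710808-8711057, both on the minus strand. The window of Gfap, chr11:102897201-102897450 on the minus strand, lies inside the span of a longer annotated transcript and overlaps no annotated exon. Each is printed 5′ to 3′ on the strand of the gene. Capitals mark matches to CCAAT on either strand, the letters of the CCAAT box, and to TTCNNNGAA, the core letters of a STAT site.
Kcnj10: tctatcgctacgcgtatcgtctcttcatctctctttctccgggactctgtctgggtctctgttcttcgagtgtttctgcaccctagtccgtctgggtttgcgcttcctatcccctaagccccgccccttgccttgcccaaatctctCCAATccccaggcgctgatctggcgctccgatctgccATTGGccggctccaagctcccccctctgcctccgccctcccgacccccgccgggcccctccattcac
Slc1a3: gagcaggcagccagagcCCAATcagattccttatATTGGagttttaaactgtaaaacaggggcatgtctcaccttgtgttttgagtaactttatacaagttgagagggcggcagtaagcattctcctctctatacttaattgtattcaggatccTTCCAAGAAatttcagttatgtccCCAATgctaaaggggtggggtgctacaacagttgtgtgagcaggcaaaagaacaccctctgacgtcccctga
Gfap: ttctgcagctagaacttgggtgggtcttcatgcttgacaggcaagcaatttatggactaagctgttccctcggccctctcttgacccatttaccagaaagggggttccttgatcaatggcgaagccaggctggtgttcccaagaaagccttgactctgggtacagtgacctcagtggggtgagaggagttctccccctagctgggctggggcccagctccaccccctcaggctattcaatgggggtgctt

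Counted from the start site, Kcnj10 had CCAAT box letters at -104 and -67. Slc1a3 had them at -233, -216 and -72 and the STAT letters at -96, and Gfap had neither. Over 32851 promoter windows of the same length, 33.8% held the CCAAT letters and 7.02% the STAT letters, so matches of this kind are common. Glul had CCAAT letters at -113 and -50, and the window of Vim, which lies wholly in an annotated exon and is not shown, held CCAAT letters at -196 and -94. Kcnj16, also not shown, had the STAT letters at -185 and CCAAT letters at -60, before different start sites. TGANTCA, the AP-1 letters, occurred in 6.75% of all windows and among the 9 members searched, which leave out Aqp4, only before Gja1, at -19. These are matches of letters and no binding was measured.

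Counted by comparison, the members were called mainly for diet in PBS-injected mice. Between PBS-acetate and PBS-control 3 of 10 were lower (Vim, Kcnj10, Aqp4) and 1 was higher (Slc1a3), where 8.84% of all genes tested were called. The same 4 members had groups that did not overlap, against 26.3% of all genes. The median difference of the members was log2 -0.14. The count was 0 without PBS-acetate mouse 2, 1 without PBS-control mouse 3 and 2 without PBS-acetate mouse 1. DESeq2 called 5 members among 1387 genes in all.

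Between Tau-acetate and PBS-acetate 1 of 10 was called, Vim, where 0.136% of all genes were called. Groups of 4 members (Vim, Gfap, Aqp4, Kcnj10) did not overlap, Tau-acetate being higher in each, against 16.2% of all genes. DESeq2 called 3 members among 130 genes in all. The edgeR count was 0 without any 1 of the 3 PBS-acetate mice or Tau-control mouse 3, and 2 without Tau-acetate mouse 3. Between Tau-control and PBS-control edgeR called 0 of 10 and 0.0136% of all genes. There, 4 members (Vim, Kcnj10, Kcnj16, Slc1a3) had an unadjusted p below 0.05, a level whose share of all genes is not given here. DESeq2 called 1 member among 100 genes in all. Groups of 4 members (Vim, Kcnj10, Slc1a2, Slc1a3) did not overlap, against 13.5% of all genes. Between Tau-acetate and Tau-control edgeR also called 0 of 10 and 0.0611% of all genes. There, 6 members had an unadjusted p below 0.05, again without the share of all genes at that level. In this comparison DESeq2 called 2 members among 167 genes in all. Groups of 7 of the 10 members did not overlap there, against 14.4% of all genes. In 5 of the 7 (Gfap, Vim, Aqp4, Kcnj10, Gja1) Tau-acetate was higher, and in Kcnj16 and Slc1a2 it was lower. Without Tau-acetate mouse 2 edgeR called 1 member, Vim.

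**Figure D2:**
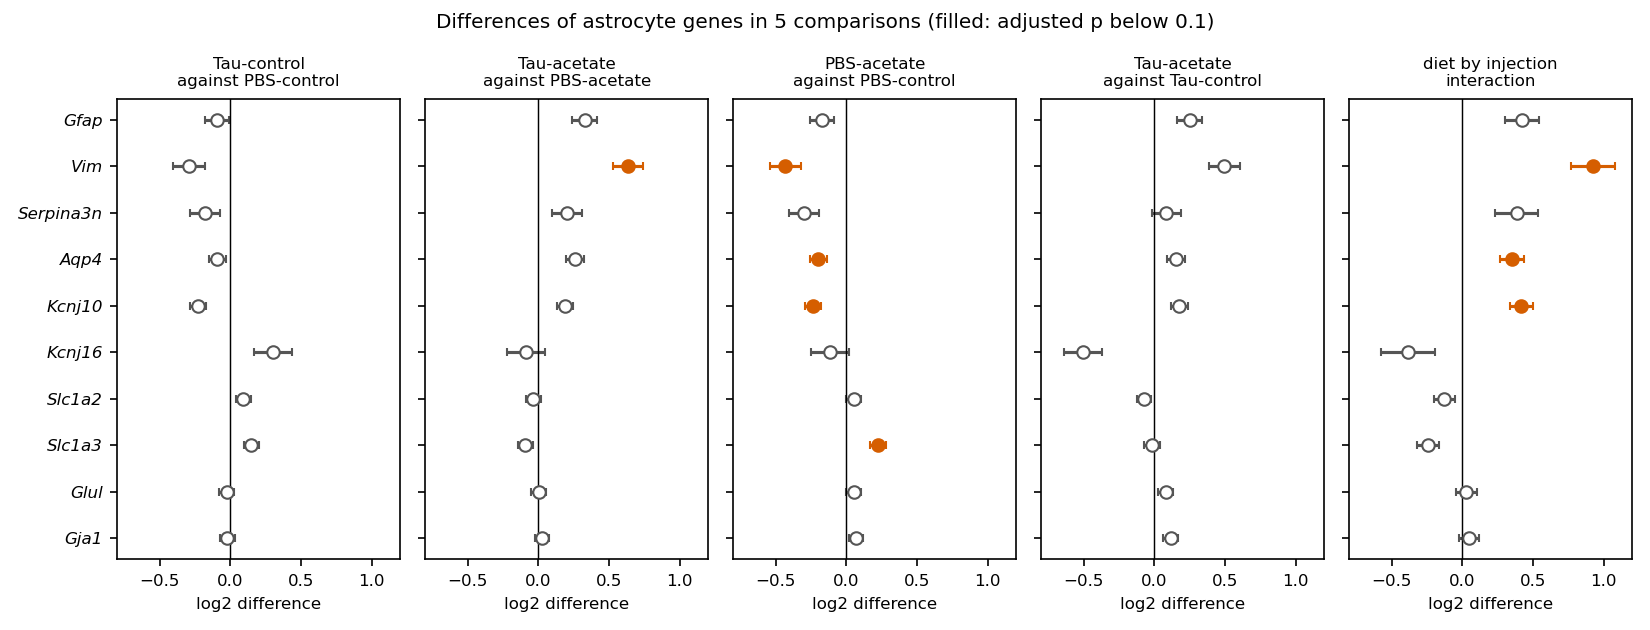
Difference in log2 CPM (horizontal axis) of each member (vertical axis) in the 4 pairwise comparisons and the diet by injection interaction, with points for the estimate, bars for the SE, and filled points for an edgeR adjusted p below 0.1. Filled points are Vim, Kcnj10, Aqp4 and Slc1a3 for diet in PBS-injected mice, Vim for AD tau on acetate, and Vim, Kcnj10 and Aqp4 for the interaction.

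Whether the diet difference depended on the injection was tested with the interaction term, which takes the diet difference in AD tau-injected mice minus that in PBS-injected mice. Of the 10 members 3 were called, all above 0, where 1.56% of all genes were called. Vim had an interaction of log2 0.93 (SE 0.15, edgeR adjusted p = 0.0357, rank 10 by p), Kcnj10 of 0.42 (SE 0.08, adjusted p = 0.0435, rank 20) and Aqp4 of 0.35 (SE 0.09, adjusted p = 0.0755). In each of these the estimated diet difference was below 0 in PBS-injected and above 0 in AD tau-injected mice, while edgeR called only the first. Gfap had an interaction of the same size as Kcnj10, log2 0.42, but a wider SE of 0.12, and it was called by DESeq2 (adjusted p = 0.0324) and not by edgeR (adjusted p = 0.152). Slc1a3 had the opposite sign, at log2 -0.24 (SE 0.08, edgeR adjusted p = 0.170), and passed the threshold in 1 of 12 fits that left out 1 mouse, that without PBS-acetate mouse 3. Slc1a2, Glul and Gja1 lay between -0.13 and 0.05.

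The interaction of Vim was called in 11 of 12 fits that each left out 1 mouse, with values of log2 0.77 to 1.03, and was lost without PBS-acetate mouse 2. That of Kcnj10 was called in 10 of 12 and lost without PBS-acetate mouse 2 or Tau-acetate mouse 1. That of Aqp4 was called in 6 of 12, and lost without PBS-control mouse 2, PBS-acetate mouse 2 or 3, Tau-control mouse 2 or 3, or Tau-acetate mouse 1. The number of members called was 0 without PBS-acetate mouse 2, 1 without Tau-acetate mouse 1 and 4 without Tau-acetate mouse 3, the fourth being Gfap at log2 0.50 (edgeR adjusted p = 0.0241).

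**Figure D3:**
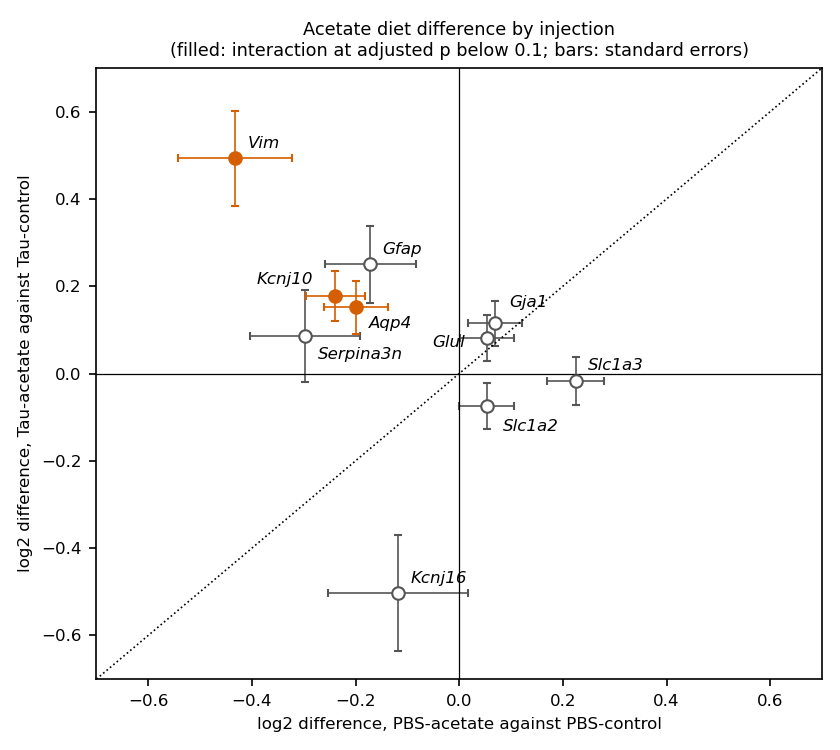
Diet difference in PBS-injected mice (horizontal axis, log2) against that in AD tau-injected mice (vertical axis, log2) for the 10 members, with SE bars and a dotted line of equal differences. Vim, Gfap, Kcnj10, Aqp4 and Serpina3n lie to the left of 0 and above it, whereas Slc1a3 and Slc1a2 lie to the right of 0 and below it.

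The balance of the 3 reactive markers against the 7 homeostatic members, taken as the difference of their mean log2 CPM within each mouse, was -1.10, -1.37 and -1.24 in PBS-control mice and -1.58, -1.52 and -1.44 in PBS-acetate mice. It was -1.37, -1.54 and -1.42 in Tau-control mice and -0.94, -1.25 and -1.32 in Tau-acetate mice. The highest value was that of Tau-acetate mouse 1, and PBS-acetate mice lay below all PBS-control and all Tau-acetate mice. The homeostatic members did not all go one way, since acetate in PBS-injected mice lowered Kcnj10 and Aqp4 and raised Slc1a3.

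Genes related to the members were followed by list. Over all genes tested, edgeR called 8.84% for acetate in PBS-injected mice, 1.56% for the interaction and at most 0.136% in each other comparison. Of 34 tested reactive astrocyte genes, 5 were called by edgeR for acetate in PBS-injected mice, all lower. These were the complement component C3 (log2 -2.90, adjusted p = 0.0236), the hyaluronan receptor Cd44 (-1.12, 0.0379), the prostaglandin synthase Ptgs2 (-0.94, 0.0355), Tm4sf1 (-0.57, 0.0286) and the sphingosine phosphate receptor S1pr3 (-0.46, 0.0469). C3 was rare, at 9.95, 5.17 and 6.77 CPM in PBS-control mice and 1.49, 0.619 and 0.894 in PBS-acetate mice, and Ptgs2 is made mostly by neurons. For AD tau on acetate 33 of the 34 were above 0, with a median of log2 0.28 against -0.0035 over all genes. Yet edgeR called 0, DESeq2 called 1, where it called 130 genes in all, and 8 had an unadjusted p below 0.05. The 34 genes summed to 807, 628 and 673 CPM in Tau-acetate mice 1, 2 and 3, against 581 to 615 in PBS-acetate mice. Mouse 1 thus stood highest in this list. Log2 CPM relative to each gene's mean over the 12 mice was also averaged over the 34 genes. This average was 0.43, -0.04 and 0.08 in Tau-acetate mice 1, 2 and 3, and -0.17, -0.28 and -0.19 in the PBS-acetate mice. The part of mouse 1 in the shift of this list was not tested. The interaction was called for Cd44 (log2 1.57, edgeR adjusted p = 0.0755) and C3 (3.60, 0.0634). Of 12 fits that each left out 1 mouse, the interaction call held in 5 for Cd44 and 8 for C3.

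Of 20 genes of reactivity signalling, Il6st, the shared receptor subunit gp130 of the interleukin-6 family, was the one called in more than 1 comparison. Il6st was read at 84.9, 94.4 and 85.1 CPM in PBS-control, 71.4, 70.2 and 68.5 in PBS-acetate, 82.5, 80.5 and 86.4 in Tau-control, and 86.5, 86.5 and 87.1 in Tau-acetate. PBS-acetate stood below every other mouse. Its difference was log2 -0.33 for acetate in PBS-injected mice (edgeR adjusted p = 0.0103), 0.31 for AD tau on acetate (0.0593) and 0.39 for the interaction (0.0466). Stat3, the transcription factor downstream of gp130, had an interaction of log2 0.57 (edgeR adjusted p = 0.0797) and no call between groups. That interaction call held in 5 of 12 fits that left out 1 mouse.

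Of 14 genes of the glutamate cycle, acetate lowered 4 and raised 1 in PBS-injected mice by edgeR, which called 8.84% of all genes there. The glutamine carriers Slc38a2 (log2 -0.40), Slc38a1 (-0.22) and Slc38a5 (-1.02) and the vesicular transporter Slc17a7 (-0.22) fell, while the receptor Grm5 (0.17) rose. Grm5 also had an interaction of log2 -0.30 (edgeR adjusted p = 0.0755), a call that held in 4 of 12 fits that left out 1 mouse. Of 17 partners of the potassium and water channels, acetate raised Sntb1 (log2 1.15), Kcnj9 (0.41) and Clcn2 (0.34) and lowered Slc12a2 (-0.42) in PBS-injected mice, and edgeR called none in the other 4 comparisons, in each of which 1 to 5 had an unadjusted p below 0.05 and DESeq2 called 0 or 1. Of 7 gap junction partners of Gja1, edgeR called 1 for acetate in PBS-injected mice, Gjb1 (log2 -0.72), a connexin of oligodendrocytes, which also had an interaction of 1.35.

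Markers of other cells also differed between groups, in some comparisons in the directions of Vim, Kcnj10 and Aqp4. The 18 oligodendrocyte markers summed to 8539 to 10980 CPM in PBS-control, 5425 to 7384 in PBS-acetate, 5709 to 6962 in Tau-control and 6674 to 10386 in Tau-acetate. All 18 of 18 were below 0 for acetate in PBS-injected mice. Of these, 6 were called by edgeR (Mobp, Cldn11, Ermn, Ugt8a, Fa2h and Gjb1), against 8.84% of all genes tested. An unadjusted p below 0.05 was found for 15, and DESeq2 called 12. Over all genes, DESeq2 called 1387 in that comparison and 472 for the interaction. It called 100 for AD tau on the control diet, 130 for AD tau on acetate and 167 for acetate in AD tau-injected mice. The share of all genes with an unadjusted p below 0.05 is not given here. With 1 mouse left out, the edgeR calls of Mobp, Cldn11 and Ermn held in 2 of 12 fits. That of Ugt8a held in 5, that of Fa2h in 8 and that of Gjb1 in 10. All 18 were above 0 for the interaction, with a median of log2 1.06 against -0.0053 over all genes. Of the 18, 2 were called by edgeR (Fa2h and Gjb1), all 18 had an unadjusted p below 0.05 and 17 were called by DESeq2. For AD tau on the control diet all 18 were again below 0, and edgeR called none, while 17 had an unadjusted p below 0.05 and DESeq2 called 6. For AD tau on acetate all 18 were above 0, with none called by edgeR, 10 at an unadjusted p below 0.05 and 2 called by DESeq2. For acetate in AD tau-injected mice all 18 were above 0, with none called by edgeR, 14 at an unadjusted p below 0.05 and 4 called by DESeq2. The 12 ependymal and choroid plexus markers summed to 124 to 159 CPM in PBS-control, 82.2 to 99.0 in PBS-acetate, 120 to 219 in Tau-control and 104 to 518 in Tau-acetate. Of these 12, 7 were called lower for acetate in PBS-injected mice and 5 were called in the interaction, against 8.84% and 1.56% of all genes. For AD tau on the control diet 5 were above 0 and 7 below, with none called by edgeR and 2 by DESeq2. Their mean sum there was 165 CPM in Tau-control and 139 in PBS-control. All 12 were above 0 for AD tau on acetate, where edgeR called none, 10 had an unadjusted p below 0.05 and DESeq2 called 6. These counts include Tau-acetate mouse 3 and are not given without it. None of the 5 interaction calls was lost when that mouse was left out. Vim is also made by ependymal cells, and Kcnj10 also by oligodendrocytes. The part of these cells in the results for Vim, Kcnj10, Aqp4, Gfap and the related lists was not tested.

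Of 27 astrocyte identity markers, 21 were above 0 and 6 below 0 for acetate in PBS-injected mice. Those called by edgeR were 5, against 8.84% of all genes. All 5 were higher, namely Slc7a10 (log2 0.28), Gpc5 (0.26), Mfge8 (0.26), Aldoc (0.20) and Apoe (0.19). For AD tau on acetate 14 of the 27 were above 0 and 13 below, where edgeR and DESeq2 called none and 1 had an unadjusted p below 0.05. Their sum was 8646 to 9129 CPM in PBS-acetate against 8017 to 8409 in PBS-control, 8114 to 8920 in Tau-control and 8524 to 8978 in Tau-acetate. Gpc5 had an interaction of log2 -0.42 (edgeR adjusted p = 0.0692), the sign that Slc1a3 had. The 12 microglia markers summed to 490 to 518 CPM in the PBS groups, 503 to 564 in Tau-control and 533 to 616 in Tau-acetate, and edgeR called none of them in any comparison. For AD tau on acetate 7 of the 12 had an unadjusted p below 0.05 and DESeq2 called 1, where it called 130 genes in all. Markers of the hippocampal fields also differed for acetate in PBS-injected mice. There, 4 of 5 tested CA1 markers were called higher and 6 of 7 tested CA3 markers lower, against 8.84% of all genes. Bulk RNA cannot tell a change in these neurons from a difference in the tissue dissected. The part of hippocampal field in the members' results was not tested.

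**Figure D4:**
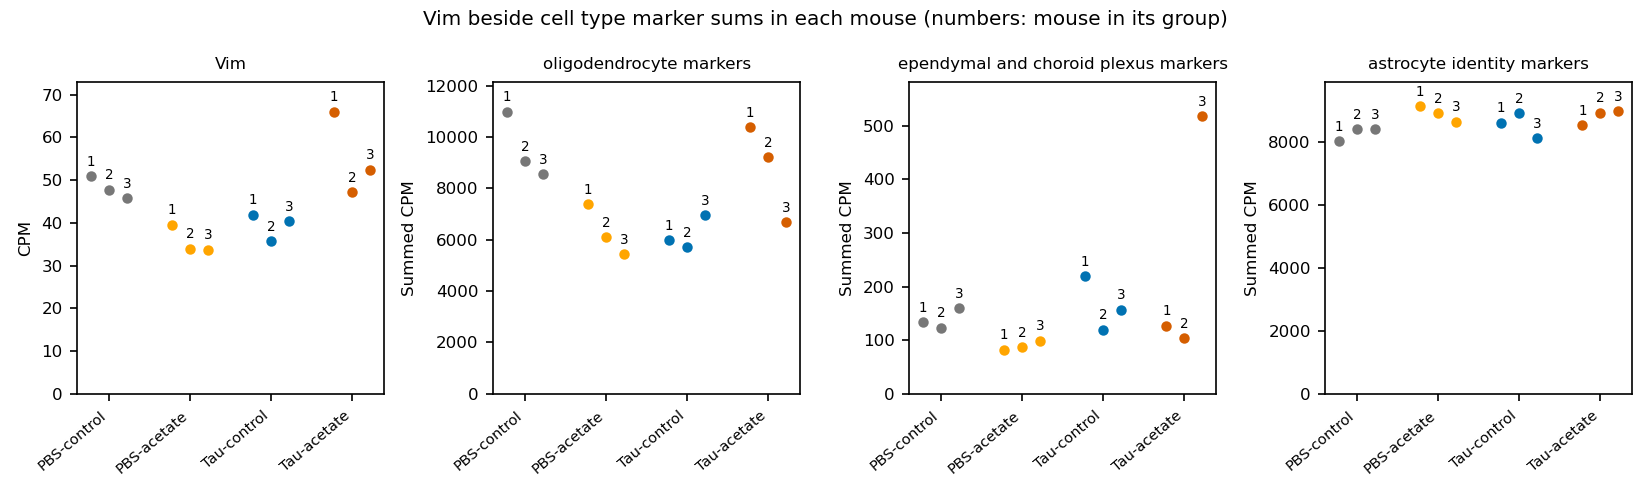
Level of Vim and summed levels of the oligodendrocyte, ependymal and choroid plexus, and astrocyte identity markers in CPM (vertical axes, linear, from 0) by group (horizontal axes), with 1 numbered point per mouse. Mean oligodendrocyte sums are lowest in PBS-acetate and Tau-control mice, and Tau-acetate mouse 3 is alone at 518 CPM of ependymal and choroid plexus markers.

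Over the 12 mice, which share the group structure, the genes whose log2 CPM was most like that of Gfap were Myo1d, C4b, Ifit2, Nek9 and Ndufa4l2, with Pearson's r of 0.88 to 0.90 and Spearman's rho of 0.83 to 0.91. C4b encodes complement component 4 and has a close paralog, so its values are uncertain. The genes most like Aqp4 were Slc39a9, Tekt4, Sncaip, Cnmd and Socs6, with r of 0.84 to 0.86 and rho of 0.81 to 0.90. Tekt4 encodes a tektin, a structural protein of motile cilia. These are descriptions of 12 mice and carry no test.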

How the data were processed

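RNA of the dorsal hippocampus of 12 mice was sequenced from polyA-selected libraries, made with a directional kit per the labels, while the study's methods name the kit without that word. The authors aligned reads with STAR 2.5.2a to GRCm38, used SAMtools 1.1, counted reads per gene by strand with HTSeq 0.9.1, and deposited raw counts for 24985 genes, of which 5357 had no count. Groups were taken from the sample labels.

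All values were computed here from those counts. The filter of filterByExpr (minimum count 10, minimum total 15) left 14742 genes. Groups were compared with the quasi-likelihood F test (robust) of edgeR 4.0.16 after TMM scaling (factors 0.99 to 1.01), with 1 mean per group over all 12 mice, 8 residual degrees of freedom and Benjamini-Hochberg adjustment over all genes, in R 4.3.3. Calls were made at an adjusted p below 0.1, the level the study used for this experiment. SEs were derived from the F statistic. CPM are TMM-scaled, and log2 CPM used a prior count of 2. Mice of a group varied by a common biological coefficient of variation of 7.25%, which exceeds the counting error of the members at this depth.

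The 10 members and all gene lists were chosen with earlier results of these data known, so their counts are descriptions. Counts at an unadjusted p below 0.05 are given without the share of all genes at that level. Genes named from a list are those called, up to 5 per list and comparison. The exception is the oligodendrocyte markers called for acetate in PBS-injected mice, of which all 6 are named. Also named are the 5 genes most like Gfap and Aqp4 by Pearson's r. Lists without a call were endothelial, dentate granule, inhibitory neuron and microglia markers, whose smallest p belonged to Slc2a1, Tdo2, Sst and C1qb. Among the lists not described further, acetate in PBS-injected mice raised Cspg4 (log2 0.29) and lowered Gpr17 (-0.31) of the OPC markers and raised Pdgfrb (0.34) of the mural markers. Some genes of these lists are not reported here and were left out of the counts. Gene positions come from GENCODE M21, and promoter windows from RefSeq. Replicate mice differed by more than sampling noise in every group (chi-square per degree of freedom 3.34 to 7.24). Alternatives were DESeq2 1.42.0, its size factors, no filter, an adjusted p below 0.05, only the compared groups, the replicate number as a block, and each mouse left out. The functions were tested on simulated data.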

Additional observations from a re-analysis of the deposited data

Results flagged for a closer look

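The diet difference in AD tau-injected mice departed from that in PBS-injected mice, by the interaction term of edgeR's quasi-likelihood test with an adjusted p below 0.1, for the members Vim (log2 0.93), Kcnj10 (0.42) and Aqp4 (0.35).

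The same test picked out genes of the related lists. Among reactive astrocyte and signalling genes the interactions were log2 3.60 for C3, 1.57 for Cd44, 0.57 for Stat3 and 0.39 for Il6st. Below 0 were Grm5 at log2 -0.30 and the astrocyte marker Gpc5 at -0.42. Oligodendrocyte genes gave log2 1.35 for Gjb1 and 1.21 for Fa2h. Ependymal and choroid plexus genes gave log2 2.92 for Folr1, 2.88 for Dynlrb2, 2.70 for Tmem212, 2.00 for Foxj1 and 1.70 for Rarres2. Of 12 fits that each left out 1 mouse, these calls held in 3 for Folr1, 10 for Dynlrb2, 9 for Tmem212, 11 for Foxj1 and 12 for Rarres2. Single mice far from the rest of their group were not tested for, since each group held 3.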

How the results depend on the processing

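No alternative other than leaving out a mouse turned the direction of a member. At an adjusted p below 0.05, 0 members were called for AD tau on acetate, and genes called fell to 0 for AD tau on either diet, 541 for acetate in PBS-injected mice, 3 for acetate in AD tau-injected mice and 43 for the interaction. DESeq2 called 1 member and 100 genes for AD tau on the control diet, 3 and 130 for AD tau on acetate, 2 and 167 for acetate in AD tau-injected mice, and 472 genes for the interaction. Without the filter 37 genes were called for AD tau on acetate, and 1 member and 56 genes for acetate in AD tau-injected mice. With the compared groups alone 35 genes were called for AD tau on the control diet, 0 members for AD tau on acetate, and 2 genes for acetate in AD tau-injected mice. The causes of these shifts were not tested.

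Replicate numbers did not pair the mice (r of deviations -0.105 to 0.144 over 18 same-numbered pairs and -0.143 to 0.150 over 36 others). With the number as a replicate block, genes called were 9 for AD tau on the control diet and 349 for the interaction, and members called were 2 for AD tau on acetate and 1 for acetate in AD tau-injected mice. Gfap passed under the block for AD tau on acetate (log2 0.32, edgeR adjusted p = 0.0400), the interaction (0.42, 0.0237) and acetate in PBS-injected mice (-0.17, 0.0892).

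With each mouse left out, members called ran from 0 to 2 for AD tau on acetate, 0 to 5 for acetate in PBS-injected mice, 0 to 1 for acetate in AD tau-injected mice and 0 to 4 for the interaction. Genes called ran from 0 to 16 for AD tau on the control diet, 0 to 93 for AD tau on acetate, 15 to 1425 for acetate in PBS-injected mice, 1 to 66 for acetate in AD tau-injected mice and 8 to 442 for the interaction. Differences near 0 crossed it: Glul (-0.065 to 0.0055) and Gja1 (-0.062 to 0.029) for AD tau on the control diet, Glul (-0.020 to 0.040) for AD tau on acetate, Kcnj16 (-0.20 to 0.012) for acetate in PBS-injected mice, Slc1a3 (-0.046 to 0.019) for acetate in AD tau-injected mice, and Glul (-0.0029 to 0.067) and Gja1 (-0.0038 to 0.085) for the interaction. Calls of listed genes for acetate in PBS-injected mice held in 2 (Mobp, Cldn11, Ermn) to 11 (among them C3 and Il6st) of 12 such fits. With 3 mice a group, an exact permutation test of 1 gene cannot go below p = 0.1.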
